A study of Danio rerio with 12 samples.

Results

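Chromosomes 7 and 25 of the zebrafish hold 4 short intervals in which neighbouring open regions were lower after the flame retardant TDCIPP, and these intervals are described here against the rest of the 2 chromosomes. The members are all consensus regions of the 2 deposited tables that lie on assembled chromosome 7 or 25. They number 2530 of 35040 regions in the TDCIPP table and 3298 of 45019 in the decitabine (DAC) table. On the genome build GRCz11 the intervals are chr7:5900000-6480000 (580 kb), chr7:73810000-73860000 (50 kb), chr25:35040000-35160000 (120 kb) and chr25:36300000-36380000 (80 kb), and each is called here by its chromosome and length. They overlap 71 regions of the TDCIPP table, which leaves 2459 as the rest, and 87 regions of the DAC table, which leaves 3211. The intervals were chosen for their runs of falls after TDCIPP, so the TDCIPP values inside them are a description without a test.

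Whole embryos at 6 hours post fertilization were profiled by ATAC-seq, an assay whose transposase, Tn5, cuts and tags open DNA. All embryos were wild type on an AB/Tuebingen background and were exposed from shortly after fertilization. The 4 groups of 3 libraries were 3.12 µM TDCIPP, an organophosphate flame retardant, 100 µM DAC, a nucleoside analog that blocks DNA methyltransferases, and a 0.1% DMSO solvent group for each compound. The DAC table calls its treated group 5AzaC in its header, and the labels' name DAC is kept here. The tables give a mean per group, a log2 fold, a p-value and an adjusted p-value for each region but 0 columns for single libraries, so no spread between libraries can be shown, and whether the libraries came from separate clutches is not stated. Since whole embryos were used, fewer cells with an open region and less opening per cell cannot be told apart.

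As background, embryos of this stage divide fast, have begun to transcribe their own genome and are entering gastrulation. Dividing cells need large amounts of the core histones H2A, H2B, H3 and H4 and of the linker histone H1 to package newly copied DNA, and animals carry many near-identical copies of these genes in arrays. The series title concerns H2A.Z, a variant of H2A found at promoters and other open sites. In the RefSeq annotation of another zebrafish assembly, GRCz12tu, 31 genes have a histone symbol or synonym, of which 9 lie on chromosome 25 and 8 on chromosome 7, and no other chromosome has more than 5. On chromosome 7 of that assembly they include hist1h2a7, hist1h2a6 and hist1h2a2 (H2A genes), hist2h3ca1 (H3) and h1l1 (linker histone). They also include h2ax2 and hist1h2a11, the latter with the synonym h2ax3, both named for the H2A.X variant. At most 17 other genes lie between neighbours there. On chromosome 25 of that assembly a first group includes hist2h3c and h3c13a (H3), hist1h4l (H4), hist1h2a10 and hist1h2a5 (H2A) and histh1l3 (linker histone). At most 12 other genes lie between its histone-named neighbours. A second group holds hist1h2a4 and hist1h2a3 (H2A), with 7 genes between them. A group allows at most 24 genes between histone-named neighbours. Coordinates were not carried between assemblies, so no gene is assigned to any GRCz11 region here, and no sequence of these regions was at hand.

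The intervals stood out first by their level, the mean normalized read count of a region on the log2 scale. In the DMSO group of the TDCIPP table, the 71 regions inside had a median level of 11.99 (quartiles 10.47 to 12.72), or 4068 normalized reads, and the 2459 regions of the rest had 6.37 (quartiles 5.63 to 7.33), or 82.7 normalized reads. The difference of the medians, 5.62 on the log2 scale, is 49.2-fold. Regions inside were wider, with a median of 2058 bp against 1168 bp. Per kb of width, the median DMSO levels were 11.00 and 6.15, a 28.9-fold difference. The part of width in the difference was not tested. Regions inside also lay closer together, with a median gap to the nearest region of 2.24 kb against 10.2 kb. The intervals held 2.81% of the regions of the 2 chromosomes and 5.01% of their region length, but 41.9% of their normalized reads in DMSO. On chromosome 25 alone that share was 53.6% and on chromosome 7 it was 34.9%. In the rest, falls with an adjusted p under 0.05 and a log2 fold shallower than -0.57 also had levels of 8.81 and above. The high level inside may thus follow in part from choosing runs of falls, and how far was not tested.

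The separate DMSO libraries of the DAC table had the same order. There the median DMSO level was 7.74 inside and 4.12 in the rest, a 12.3-fold difference, and the intervals held 12.7% of the reads of the 2 chromosomes in 2.64% of their regions. Levels of the 2 tables were normalized separately and are not compared with each other. Across the 69 interval regions present in both tables, the DMSO levels of the tables had Pearson r = 0.956 and Spearman rho = 0.963, against r = 0.777 across 1786 shared regions of the rest. The 2 sets differ in level. At a TDCIPP level of at least 10, r was 0.898 over 54 interval regions and 0.693 over 45 regions of the rest. These correlations are across regions, which are not replicates. Paired regions share at least 1 base but can differ in width. The region chr7:5903940-5914183 has 10244 bp in the TDCIPP table, and its counterpart in the DAC table has 3179 bp. The part of region width in these correlations was not tested. The sources used here do not say how reads matching several places were treated, and the part of such reads in the levels was not tested.

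**Figure D1:**
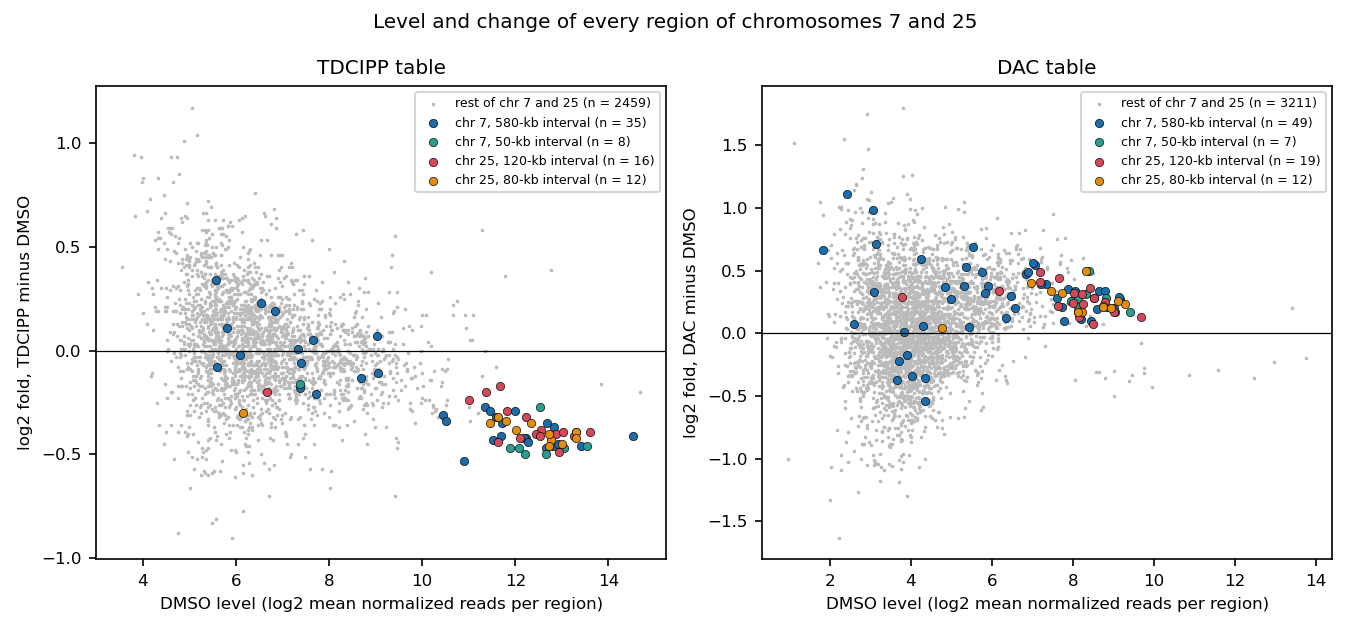
Each point is a region of chromosome 7 or 25, with its DMSO level (log2 mean normalized reads) on the x axis and its log2 fold of treated minus DMSO on the y axis, for TDCIPP (left) and DAC (right). Coloured points are the regions of the 4 intervals and grey points the rest; after TDCIPP the high-level interval regions lie between -0.53 and -0.17, while the grey points lie on both sides of 0.

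Inside the intervals, the regions formed 2 classes by level with none in between. There were 54 regions with a level of at least 10, the lowest at 10.30, and 17 regions below, the highest at 9.08. The boundary of 10 was set after these values were seen. All 54 high-level regions were lower after TDCIPP, with log2 folds from -0.53 to -0.17 and a median of -0.40 from the authors' deposited table. The 17 low-level regions had log2 folds from -0.30 to 0.34 with a median of -0.06 per the authors' deposited table, 10 negative and 7 positive, so that the classes overlapped in part. At an adjusted p under 0.05 by the authors' deposited table, 43 of the 71 regions fell and 0 rose, where 0.916% of all regions of that table were called lower. All 43 belong to the high-level class, and nothing is read from that share because the intervals were chosen on it. In the authors' deposited table, 1 of the 71 regions lies below a level of 5.71, under which every adjusted p is 1, and it could not have been called. On the rest of these chromosomes, called falls at levels of 7.79 and below had log2 folds of -0.57 or deeper by the authors' deposited table. Shallower called falls there had levels of 8.81 and above. A fall of the size seen inside could thus go uncalled at a low level, and 0 calls there says little.

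Over the 54 regions of the high-level class the SD of the log2 fold was 0.0775, a spread that the choice of runs of falls limits. The called falls spanned log2 folds from -0.53 to -0.32 with a median of -0.42 from the authors' deposited table. Nearest to the threshold, chr7:6441242-6441930 passed with an adjusted p of 0.0445, while chr7:6414915-6417331 (0.0634) and chr25:35061028-35063101 (0.0685) did not, per the authors' deposited table.

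**Figure D2:**
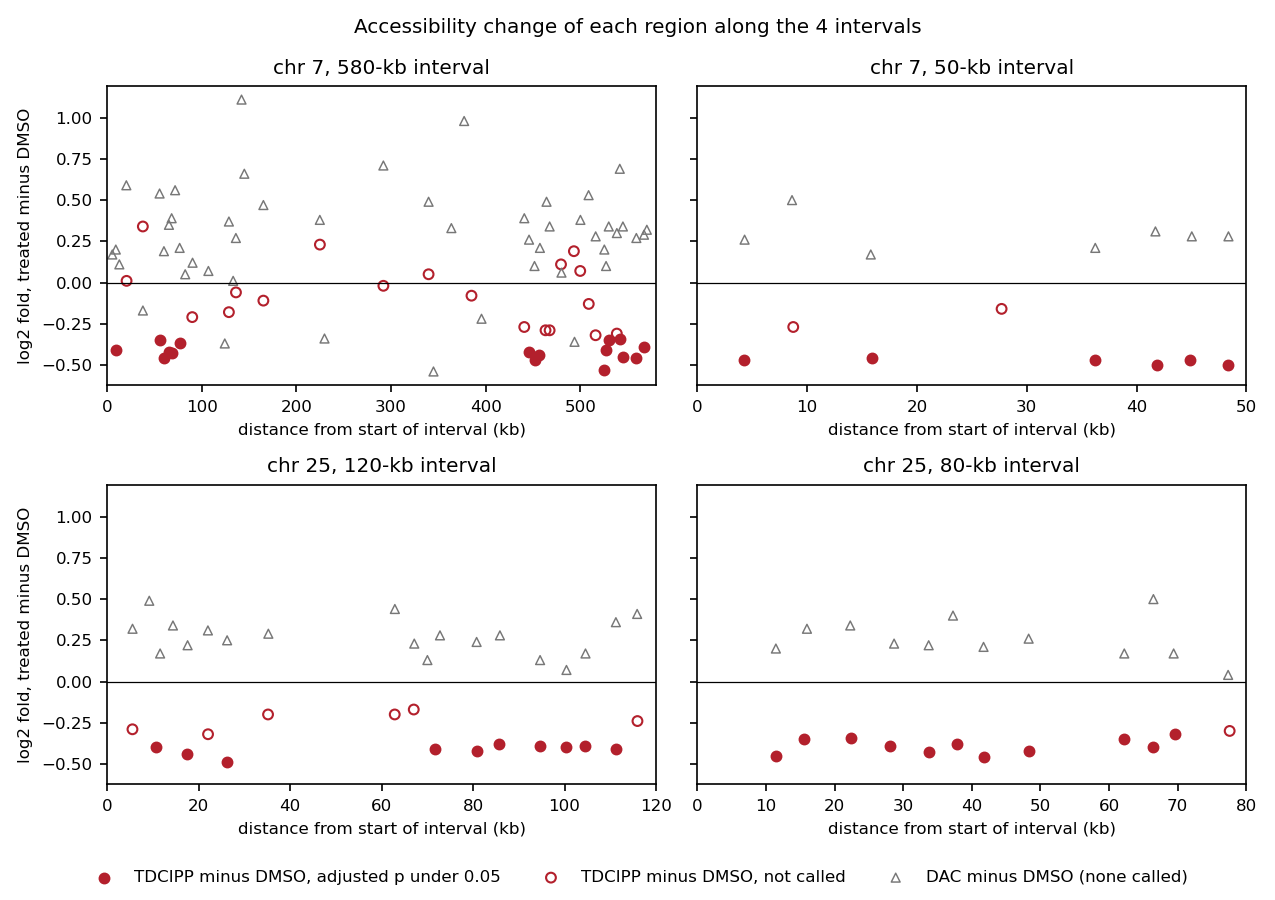
Log2 fold of each region (y axis) by the distance of its midpoint from the start of its interval in kb (x axis), with TDCIPP as red circles (filled where the adjusted p is under 0.05) and DAC as grey triangles. In the 580-kb interval the filled circles lie in stretches on either side of a centre with folds from -0.21 to 0.23, while in the other 3 intervals every red circle lies below 0.

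The 580-kb interval of chromosome 7 held most of the low-level regions. Of its 35 regions, 21 were of high level and 14 of low level, and the other 3 intervals held 1 low-level region each. There the high-level regions had log2 folds from -0.53 to -0.27 and the low-level regions from -0.21 to 0.34 by the authors' deposited table, with no overlap. Its 16 falls lay in 3 stretches, with 6 falls at chr7:5903940-5978158, 3 at chr7:6344325-6358084 and 7 at chr7:6424981-6468780. Between the first and the second stretch, 8 low-level regions (DMSO level 5.59 to 9.05) had a median log2 fold of -0.07 from the authors' deposited table. Of these, 0 were called, a count that their low level limits. The high-level chr7:6339878-6341603 also lay between these stretches. It was not called, with a log2 fold of -0.27 at an adjusted p of 0.119 by the authors' deposited table.

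In the first stretch, chr7:5903940-5914183 had the highest level of all interval regions and was the widest, at 10244 bp. It went from a DMSO level of 14.53 (23657 normalized reads) to 14.13 after TDCIPP (17929 reads), a log2 fold of -0.41 with an adjusted p of 0.00252 per the authors' deposited table. The smallest adjusted p of that stretch belonged to chr7:5958677-5961334, from 12.80 to 12.35, with a log2 fold of -0.46 at an adjusted p of 0.000197 by the authors' deposited table. The stretch ended at chr7:5975175-5978158, with a log2 fold of -0.37 from the authors' deposited table.

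In the second stretch, chr7:6350282-6352892 had a log2 fold of -0.47 at an adjusted p of 0.000244 per the authors' deposited table. In the third, the narrow region chr7:6424981-6425652 (672 bp) went from 10.89 to 10.36, the largest fall inside the intervals, with a log2 fold of -0.53 at an adjusted p of 0.000396 by the authors' deposited table. The region chr7:6457430-6460949 had the smallest adjusted p of that stretch, 0.000186, with a log2 fold of -0.46 from the authors' deposited table. The 7 regions with a positive fold were all of low level, had log2 folds from 0.01 to 0.34, and had adjusted p-values of 0.706 and above per the authors' deposited table. Low-level regions with positive folds also lay between the second and the third stretch, as at chr7:6398987-6400781, with a log2 fold of 0.07 by the authors' deposited table. High-level regions there were lower but not called, at chr7:6361829-6364635 (-0.29), chr7:6366576-6368536 (-0.29) and chr7:6414915-6417331 (-0.32) per the authors' deposited table. The gap between these stretches thus depends on the threshold. All 15 high-level regions at chr7:6339878-6468780 had negative folds, and 10 were called.

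The 50-kb interval, near the far end of chromosome 7, had 6 falls among 8 regions and the lowest median fold of the 4, -0.47 from the authors' deposited table. The smallest adjusted p of all interval regions, 0.000104, belonged to chr7:73853534-73856295, which went from 13.05 to 12.57 with a log2 fold of -0.47 per the authors' deposited table. The largest falls there, chr7:73850922-73852761 and chr7:73857267-73859486, both had a log2 fold of -0.50 by the authors' deposited table. The highest level was at chr7:73823479-73828306, with 11911 normalized reads in DMSO and 8659 after TDCIPP. The 2 regions not called were chr7:73817791-73819674 (log2 fold -0.27) and the low-level chr7:73836481-73838940 (-0.16) from the authors' deposited table.

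On chromosome 25 every region of both intervals had a negative TDCIPP fold. The 120-kb interval had 10 falls among 16 regions, the first at chr25:35048760-35052525 and the last at chr25:35150079-35152330. Its smallest adjusted p and its largest fall coincided at chr25:35064631-35067984, from 12.94 to 12.44, with a log2 fold of -0.49 at an adjusted p of 0.000158 per the authors' deposited table. Its highest region, chr25:35131992-35137267, went from 12503 to 9476 normalized reads, with a log2 fold of -0.39 by the authors' deposited table. The 80-kb interval had 11 falls among 12 regions, from chr25:36309759-36313101 to chr25:36368688-36370470. Its smallest adjusted p was 0.000558 at chr25:36332793-36334720 (log2 fold -0.43), and its largest fall was at chr25:36339868-36343802 (-0.46), from the authors' deposited table. Its only region not called was the low-level chr25:36377239-36377909, with a log2 fold of -0.30 at an adjusted p of 0.697 per the authors' deposited table.

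The intervals were drawn around runs of falls, so that lower values ended at their borders follows from that choice. The outside regions given here were also all below a level of 10. Inside the intervals, the 17 regions below that level had a median log2 fold of -0.06 from the authors' deposited table. The 8 nearest regions outside, at 10.6 to 66.8 kb from the outermost interval regions, had DMSO levels of 5.65 to 8.26. Their log2 folds ran from -0.10 to 0.36 with 0 called by the authors' deposited table. Between the 2 intervals of chromosome 25 lay 35 regions with a median DMSO level of 6.17 and a median log2 fold of -0.04 from the authors' deposited table, again with 0 called. At such levels a fall of the size seen inside could go uncalled, so the counts of 0 say little beside the folds.

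Summed over regions, normalized reads inside the intervals fell by 24.1% after TDCIPP, and those of the rest fell by 0.909%. The sums cover the same 170.4 kb of regions in both groups inside the intervals, where the mean went from 1907 to 1447 normalized reads per kb, and in the rest the mean went from 139.8 to 138.6. The changes of the single intervals were -23.8% in the 580-kb, -26.7% in the 50-kb, -23.2% in the 120-kb and -24.3% in the 80-kb interval. The share of the intervals in the reads of the 2 chromosomes went from 41.9% in DMSO to 35.5% with TDCIPP.

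Regions of high level elsewhere on these chromosomes had folds on both sides of 0. Outside the intervals, 45 regions had a level of at least 10, with log2 folds from -0.34 to 0.58 and a median of -0.10 per the authors' deposited table. Of these, 27 were negative and 1 was called, chr25:189022-192920, with a log2 fold of -0.34 at an adjusted p of 0.0459 by the authors' deposited table. That is 2.22% of the 45, where 14.4% of all 645 regions at this level in the table were called lower and 15.3% in either direction. The 645 include the 54 interval regions chosen for their falls, and without these 8.46% of 591 were called lower and 9.48% in either direction. Rises were 0 of the 45, against 0.93% of the 645. At an unadjusted p under 0.05 there were 17 of the 45 (37.8%), against 38% of the 645 and 32.5% of the 591. Their median level was 10.44, below the 12.13 of the high-level interval regions. At a level of at least 12, the intervals held 30 regions, of which 28 fell. Outside them the assembled chromosomes held 75 such regions, with a median log2 fold of 0.00, 7 falls and 1 rise from the authors' deposited table. Only 3 of those 75 lie on chromosomes 7 and 25. The highest of them, chr7:2596-6346, went from 14.68 to 14.48, with a log2 fold of -0.20 at an adjusted p of 0.523 per the authors' deposited table.

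Runs of 3 or more high-level regions within 50 kb of each other also occurred outside the intervals, and they differed in direction. This definition was chosen after the values were seen. The 9 regions at chr25:18797455-18867856 all had negative log2 folds, from -0.34 to -0.24, but 0 were called and their smallest adjusted p was 0.0613 by the authors' deposited table. Within 50 kb before this run lay a called fall, chr25:18784622-18786259, left out by its level of 7.72. Its log2 fold was -0.66 at an adjusted p of 0.00386 per the authors' deposited table. The 4 regions at chr25:25237948-25297499 had log2 folds from 0.17 to 0.22, and the 5 regions at chr7:21811548-21838352 from -0.08 to 0.11, with 0 called from the authors' deposited table. Beside the intervals, chromosomes 7 and 25 thus had runs of high level that were lower without passing, near 0, and higher without passing.

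**Figure D3:**
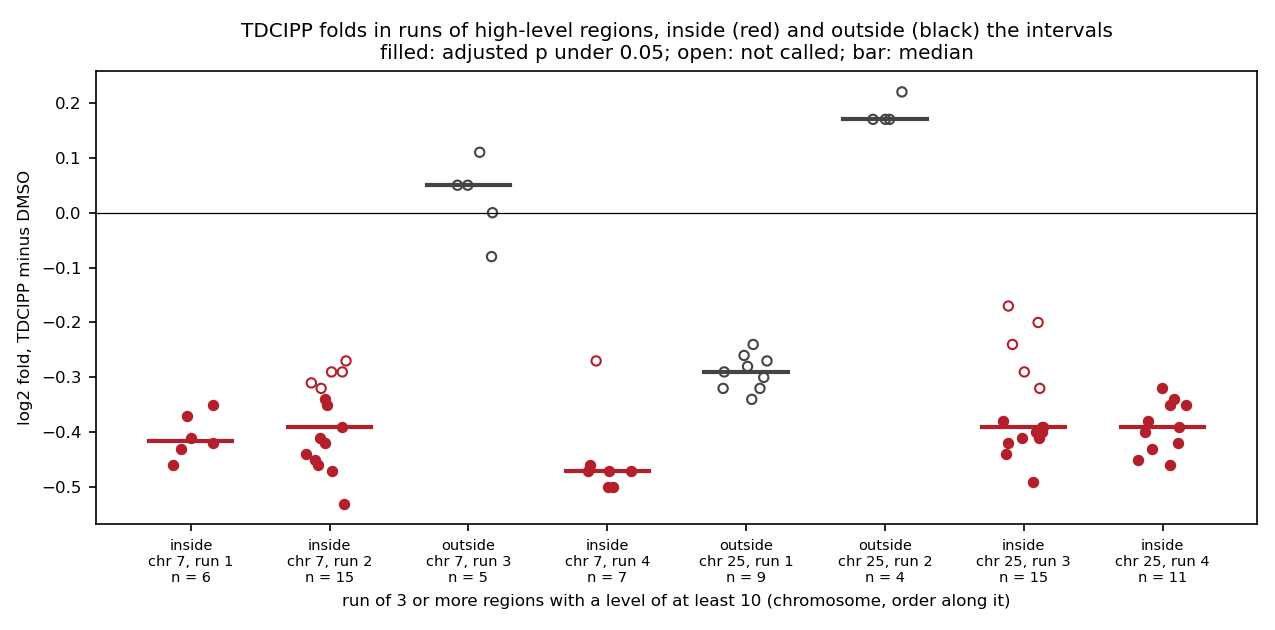
TDCIPP log2 folds (y axis) of the regions in each run of 3 or more regions with a level of at least 10 on chromosomes 7 and 25 (x axis, in order along each chromosome), red inside and black outside the intervals, filled where the adjusted p is under 0.05, with a bar at the median. The 5 red runs lie between -0.53 and -0.17, and the 3 black runs have medians of -0.29, 0.05 and 0.17.

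With the intervals, which were chosen for falls, chromosomes 7 and 25 had 54 falls and 16 rises. Setting the intervals apart left more rises than falls on the rest. Calls in either direction were 27 of 2459 (1.10%), against 1.28% of all regions of the table, and at an unadjusted p under 0.05 they were 237 (9.64%), against 9.93%. Of the 2459 regions, 16 rose (0.651%) and 11 fell (0.447%), against 0.362% and 0.916% of all regions of the table, and on the 23 other chromosomes the share of rises ran from 0.0787% to 1.24% and that of falls from 0 to 2.12%. Both shares of the rest lie within the range of those 23 chromosomes, and the order of rises over falls was not tested. The whole table includes the intervals, and runs of falls on the 23 chromosomes were not set apart. In the rest, chromosome 7 had 12 rises and 5 falls, and chromosome 25 had 4 rises and 6 falls. The rise with the smallest adjusted p on chromosome 7, chr7:33512250-33513562, went from 5.05 to 6.22, with a log2 fold of 1.17 at an adjusted p of 0.000533 per the authors' deposited table. It was followed by chr7:47538193-47540791 (log2 fold 0.49) and chr7:46686757-46687685 (0.61) by the authors' deposited table. On chromosome 25 the corresponding rises were chr25:18395782-18396668 (0.76), chr25:14901633-14904031 (0.58) and chr25:18306155-18308355 (0.43) from the authors' deposited table.

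Falls of the rest lay singly or in pairs, and 10 of the 11 had a level below 10. By adjusted p, chr7:25046368-25049608 led, from 9.41 to 8.71, with a log2 fold of -0.70 at an adjusted p of 6.03e-08 per the authors' deposited table, larger in size than any fold inside the intervals. A pair of falls lay at chr7:22790427-22793933 (-0.42) and chr7:22795525-22797266 (-0.47) by the authors' deposited table. On chromosome 25 the falls with the smallest adjusted p were chr25:18784622-18786259 (-0.66), chr25:197780-200593 (-0.44) and chr25:381330-382484 (-0.57) from the authors' deposited table.

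After DAC no region of the 2 chromosomes was called, and the interval regions had mostly positive folds. Every adjusted p of the authors' deposited table was 1, so 0% of its regions were called. At an unadjusted p under 0.05, the DAC table had 28 of 3298 regions of the 2 chromosomes (0.849%), against 1.01% of all its regions. Inside the intervals it had 0 of 87, with a smallest unadjusted p of 0.0717 per the authors' deposited table. That value belonged to chr7:6276980-6277485, a low-level region with 8.46 normalized reads in DMSO. Positive folds were found at 81 of the 87 interval regions (93.1%), with a median log2 fold of 0.28, against 57.2% and 0.07 in the rest and 59.8% and 0.10 over all regions of the authors' deposited table. Those backgrounds are mostly of lower level. At a DAC level of at least 7, 57 of 57 interval regions were positive. At that level 81.25% of 96 regions of the rest were positive, and 80.7% of all 1362 regions outside the intervals. The 57 had unadjusted p-values from 0.437 to 0.951 with a median of 0.818 by the authors' deposited table. The 96 had a median of 0.5425 there. None of the 57 positive folds was thus near a call. The medians of the 4 intervals were alike, at 0.29 in the 580-kb, 0.28 in the 50-kb and 0.28 in the 120-kb interval and about 0.23 in the 80-kb interval of the authors' deposited table. DAC against DMSO and TDCIPP against DMSO used separate control libraries.

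The DAC difference between the intervals and the rest depended on level. At a DAC level of at least 7, the 57 interval regions had log2 folds from 0.07 to 0.56 with a median of 0.27, and the 96 regions of the rest had folds from -0.50 to 0.95 with a median of 0.32, by the authors' deposited table. The sign of the difference thus turned, from 0.21 over all levels to -0.05. At a level of at least 8 the medians were 0.24 over 41 interval regions and 0.07 over 35 regions of the rest from the authors' deposited table. The SD of the DAC log2 fold at a level of at least 7 was 0.119 over the interval regions and 0.34 over the rest.

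Single DAC folds inside the intervals spread most where levels were low. In the 580-kb interval they ran from -0.54 at chr7:6244211-6245478 to 1.11 at chr7:6041496-6042548 per the authors' deposited table, and all 6 negative folds of the intervals lay there. In DMSO, the 6 negative ones had levels of at most 4.36. In the 50-kb interval the folds ran from 0.17 at chr7:73823379-73828210 to 0.50 at chr7:73817781-73819462 by the authors' deposited table. They ran from 0.07 at chr25:35139383-35141449 to 0.49 at chr25:35048689-35049743 in the 120-kb interval of the authors' deposited table. In the 80-kb interval they ran from 0.04 at chr25:36376574-36378127 to 0.50 at chr25:36365290-36367630 from the authors' deposited table.

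The DAC regions with the smallest unadjusted p-values all lay outside the intervals, as did 3211 of all 3298 DAC regions of the 2 chromosomes. On chromosome 25 the first of them was chr25:31468689-31469204, with a log2 fold of 1.80 at an unadjusted p of 0.000123 by the authors' deposited table. On chromosome 7 it was chr7:11988676-11989761, with a log2 fold of 1.75 at an unadjusted p of 0.000339 from the authors' deposited table. Among negative folds, chr7:48256464-48257404 (log2 fold -1.19) and chr25:16172119-16173760 (-1.07) had the smallest, both 0.0173 per the authors' deposited table. None of these passed after adjustment, and they had only 7.57 to 18.4 normalized reads in DMSO.

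Summed reads inside the intervals were 19.8% higher with DAC than in its DMSO group, against 5.50% in the rest. By chromosome, the intervals of chromosome 7 had a change of 20.9% and its rest 2.55%, while the intervals of chromosome 25 had 18.7% and its rest 16.4%. Over the other 23 chromosomes reads were 10.2% higher. Sums give most weight to the highest regions. On chromosome 25 the medians were further apart than the sums, with a DAC log2 fold of 0.25 inside and 0.10 in its rest. On chromosome 7 the medians were 0.28 inside and 0.06 in its rest, by the authors' deposited table.

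**Figure D4:**
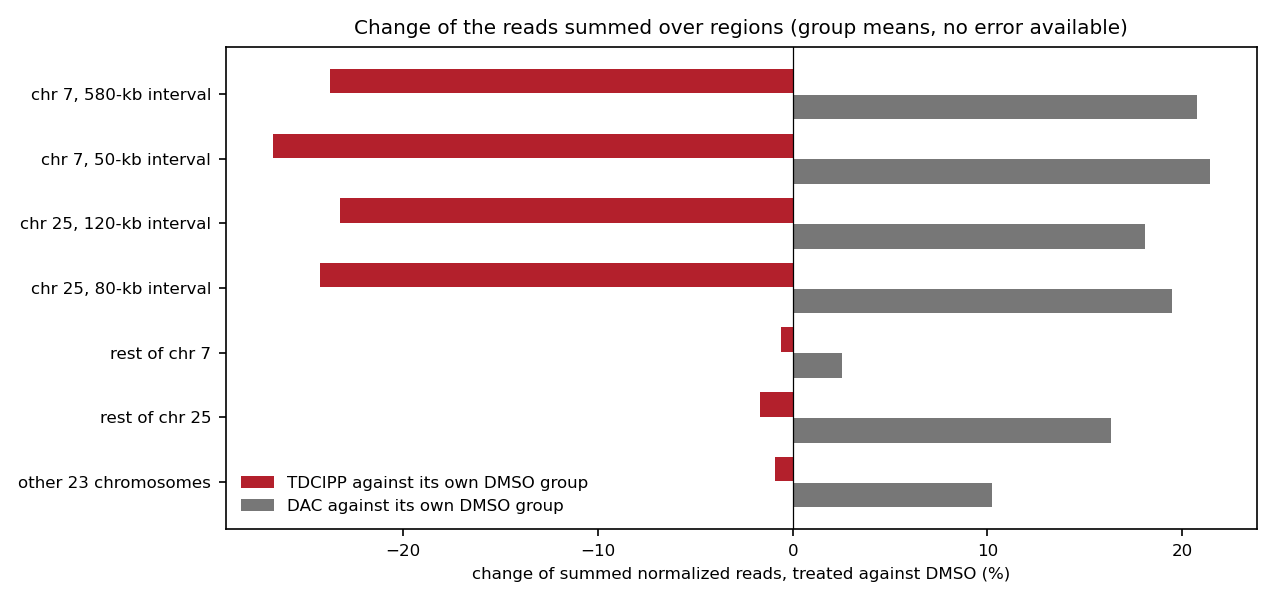
Change of normalized reads summed over regions, treated against DMSO, in percent (x axis) for each interval, the rest of each chromosome and the other 23 chromosomes, with TDCIPP in red and DAC in grey. The 4 intervals lie between -26.7% and -23.2% for TDCIPP, while the DAC bar of the rest of chromosome 25 (16.4%) lies near those of the intervals.

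All 43 regions that fell after TDCIPP had a counterpart in the DAC table, and all 43 counterparts had a positive DAC fold, from 0.07 to 0.69 with a median of 0.25 per the authors' deposited table. Of the 54 high-level interval regions, all lower with TDCIPP by the choice of the intervals, 54 had a positive DAC fold. None of the 87 DAC regions of the intervals had an unadjusted p under 0.05, so these counts concern sign only. Among the 45 regions of the rest at that TDCIPP level, 27 were negative after TDCIPP, and 26 of these 27 had a positive DAC fold. Across the 54 regions the folds had Pearson r = 0.413 and Spearman rho = 0.425. Within these, deeper falls after TDCIPP went with smaller DAC folds. Other sets differed. Over all 69 shared interval regions r was -0.0274 and rho 0.309. In the rest, r was -0.423 over the 45 regions and -0.203 over 1786 shared regions of any level. Among high-level interval regions both folds also went down with level. There r was -0.392 over the 54 TDCIPP regions and -0.521 over the 57 DAC regions with a level of at least 7. Over interval regions of any level, r was -0.824 for 71 TDCIPP regions but 0.037 for 87 DAC regions. Among high-level regions of the rest, r was -0.524 over 96 DAC regions but 0.209 over the 45 TDCIPP regions. These correlations are across regions that share their libraries and are given as a description.

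Beside the intervals, the assembled chromosomes with runs of at least 6 falls were 5 and 17, with TDCIPP folds near those of the intervals and larger DAC folds. At chr5:43119823-43285793, 12 falls had a median log2 fold of -0.46 and a median DMSO level of 10.85, while 12 of 12 DAC regions were positive with a median of 0.94 by the authors' deposited tables. At chr17:23329700-23382391, 9 falls had a median of -0.41 and a median DMSO level of 11.11, and the median DAC fold was 0.39, in the authors' deposited tables. Runs of that size also lay on the alternate scaffolds KZ115525v1 and KZ114955v1 of chromosome 17. Their median DMSO levels were 10.48 and 12.12, and their median DAC folds 0.68 and 0.40, in the authors' deposited tables. In the 5 runs of that size inside the intervals, median DMSO levels were 12.43 to 12.72 and median DAC folds 0.21 to 0.30 in the authors' deposited tables. Whether the DAC folds of these runs differ beyond the spread between libraries was not tested.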

How the data were processed

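ATAC-seq libraries of 12 zebrafish samples in 4 groups of 3 entered 2 comparisons made by the authors. The build GRCz11 and the tools DiffBind, MACS2, Bowtie2, deepTools and Picard come from the submitters' processing notes, which give no versions. The sources used here do not say how Tn5 shifts, duplicates, multiple matches or library scaling were handled. Per the file headers, the deposited level is a log2 mean of normalized reads, for all libraries and for each group, and the fold is a log2 difference. The deposited fold equals treated minus DMSO level within 0.01 in every region. Per the file headers, the deposited p-value is given with an adjusted p-value (FDR), and a call is an adjusted p under 0.05. Depth per library and replicate similarity cannot be computed from group means.

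A region was put in an interval if it overlapped it by 1 base. Counts, medians, quartiles and sums of reads (2 to the level) were computed with pandas 2.3.3, and regions of the tables were paired at 1 shared base, each used once. Calls were read over the whole table, and the code was tested on simulated data. Regions were named by a fixed rule: first, last, deepest and smallest-p falls, highest level and positive folds per interval, and smallest p in each direction elsewhere. Members, intervals and lists were chosen with earlier results of these data known. A count test had been planned for counts per library, which were not at hand; the deposited p-values were used instead. Alternatives were other thresholds, recomputed adjustment, fold and level limits, interval bounds and other choices of the rest.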

Additional observations from a re-analysis of the deposited data

How the results depend on the processing

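No paired analysis was possible because only group means were at hand. Leaving out replicates, other scalings and count filters were not run, as they too need single libraries. The 43 calls inside the intervals after TDCIPP became 3 at an absolute log2 fold of at least 0.5, and the other alternatives gave 30 to 53. The 27 calls in the rest became 7 at an adjusted p under 0.01, 237 at an unadjusted p under 0.05, and 1 at a level of at least 10. After DAC, 0 calls became 28 at an unadjusted p under 0.05 and 0 with recomputed adjustment. The median TDCIPP fold inside minus rest was -0.39 and stayed negative under each alternative, smallest at -0.25 with a level of at least 12, where the rest holds 3 regions. Its sign was set by choosing the intervals for their falls, so the alternatives show only how its size moved. The median DAC fold inside minus rest was 0.21, went to 0.08 over regions shared by both tables, and turned to -0.04 with folds less the median of their level class and to -0.05 at a level of at least 7, while a level of at least 8 gave 0.17. The cause was not tested. Across the 3211 regions of the rest, DAC folds and levels had r = 0.29. Limits on level were chosen after seeing the data. The median region of the rest had 17.4 normalized reads in DMSO in the DAC table, which limits single low-level folds there.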
